A study of Mus musculus with 12 samples.

Results

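The 10 genes described here are Nfe2l2, which encodes the transcription factor NRF2, and 9 genes for enzymes of the antioxidant defence: Gclc, Gclm, Nqo1, Srxn1, Txnrd1, Prdx1, Cat, Sod1 and Gpx1. They were chosen by symbol from a liver table of 23849 gene symbols. Each was found on exactly 1 line, and all 10 reached a mean of at least 1 FPKM (fragments mapped to a gene, scaled by transcript length and library size), the limit for testing, which 9806 symbols reached. The livers came from male mice with a C57BL/6J background, 8 weeks of age, and every group was fed a high-fat diet. Mice were given either vehicle (Cntrl) or Libramed, the label for the gel-forming fiber blend Policaptil Gel Retard, by gavage for 2 weeks, and livers were collected at ZT0 or ZT12. ZT counts the hours since lights on, so ZT0 is the start of the rest phase and ZT12 the start of the active phase. There were 3 mice in each of the 4 groups and no group on another diet, so the effect of the diet itself was not measured.

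NRF2 is held at a low level by KEAP1, an adaptor that hands it to the CUL3 ubiquitin ligase for destruction. When reactive cysteines of KEAP1 are modified by oxidants or electrophiles, NRF2 accumulates, pairs with a small MAF protein and binds antioxidant response elements near its target genes. Control of NRF2 is therefore mostly at the protein level, and the level of its mRNA need not follow its activity. In liver, its targets make and recycle glutathione, run the thioredoxin system and detoxify electrophiles, while catalase, superoxide dismutase and glutathione peroxidase are abundant enzymes that remove superoxide and hydrogen peroxide and are less tied to NRF2.

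Promoter windows from RefSeq on GRCm38.p6, from 250 bases before to 50 bases after a start site, were matched to 9 of the 10 genes in 11 windows, 3 of them for Txnrd1. Gclc had no entry. Each window was searched on both strands for 2 forms of the core of the antioxidant response element, TGACNNNGC and TGAGNNNGC, and for the E-box CACGTG, the letters bound by the clock factors CLOCK and BMAL1. TGACNNNGC was found in 6 of the 11 windows, those of Nfe2l2, Gclm, Srxn1, Prdx1, Sod1 and 1 of Txnrd1, and in 12.4% of all 32851 windows. TGAGNNNGC was found in 2 of the 11, those of Srxn1 and Prdx1, and in 17.6% of all windows. No window of the 10 genes held CACGTG, which 7.15% of all windows held. The first 240 bases of 4 windows are printed below, with matches to either core form in capitals. Srxn1 and Gclm are shown because they hold such a match and had their lowest group mean in Libramed ZT12. Nqo1 and Cat are shown because they held none and were both higher at ZT12. Prdx1 and Txnrd1 met the first condition as well, and Gpx1, which held none and had higher means at ZT12, the second. Sod1 held a match and had higher means at ZT12. The 4 windows therefore do not show whether matches go with the changes. A match here is a match of letters only. The capitals in Srxn1 are all of the form TGAGNNNGC. Its TGACNNNGC match lies after the start site, past the 240 bases printed.
Srxn1, chr2:152105274-152105513, strand plus: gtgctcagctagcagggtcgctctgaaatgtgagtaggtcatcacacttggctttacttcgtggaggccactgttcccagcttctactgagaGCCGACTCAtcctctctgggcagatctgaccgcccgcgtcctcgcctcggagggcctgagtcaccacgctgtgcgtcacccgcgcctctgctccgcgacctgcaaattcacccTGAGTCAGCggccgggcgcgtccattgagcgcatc
Gclm, chr3:122245307-122245546, strand plus: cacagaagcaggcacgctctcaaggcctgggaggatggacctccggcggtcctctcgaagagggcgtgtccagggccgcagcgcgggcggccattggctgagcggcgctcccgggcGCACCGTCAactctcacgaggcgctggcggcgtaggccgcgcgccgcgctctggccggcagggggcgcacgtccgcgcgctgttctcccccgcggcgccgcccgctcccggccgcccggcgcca
Nqo1, chr8:107403216-107403455, strand minus: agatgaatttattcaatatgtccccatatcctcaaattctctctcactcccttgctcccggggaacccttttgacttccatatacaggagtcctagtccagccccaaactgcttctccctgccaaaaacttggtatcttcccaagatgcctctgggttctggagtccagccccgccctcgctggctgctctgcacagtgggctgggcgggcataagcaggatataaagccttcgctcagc
Cat, chr2:103485164-103485403, strand minus: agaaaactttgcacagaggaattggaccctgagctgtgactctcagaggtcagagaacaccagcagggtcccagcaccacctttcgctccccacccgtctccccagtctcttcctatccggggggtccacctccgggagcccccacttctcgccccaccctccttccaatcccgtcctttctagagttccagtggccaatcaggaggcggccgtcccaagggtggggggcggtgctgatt

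The libraries were similar in their totals, with sums of 634683 to 759355 FPKM and between 23.9% and 28.7% of it in the 10 highest genes. The first principal component held 33% of the variance and separated ZT0 from ZT12. Day-night genes that peak in the evening, such as Dbp and Per2, summed to 22.7–57.8 FPKM in the ZT0 libraries and to 159–232 FPKM in the ZT12 libraries. Of 8 hepatocyte markers 7 were measured, while Alb, the gene for albumin, was listed at 0 in all libraries. By marker sums, 2 libraries stood apart, both in Libramed ZT12. In replicate 3, 5 skeletal muscle markers summed to 47.9 FPKM, against 0.943–1.59 FPKM in the other 11, where Acta1, Ckm and Tnnt3 were at 0. In replicate 2, the 5 neutrophil markers listed, mostly S100a8 and S100a9, summed to 19.6 FPKM, against 0.734–10.7 FPKM in the other 11. Values without each of these libraries are given below for Gclc over time in Libramed and for Gclc, Gclm and Srxn1 at ZT12. Other results that include them are given with all libraries or as ranges over the libraries left out. In whole tissue, fewer cells of a type and less RNA per cell cannot be told apart.

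The 10 genes spanned a wide range of levels per length. Gpx1, the cytosolic glutathione peroxidase, had the highest mean over the 12 libraries, 3577 FPKM, and ranked 23 among the genes tested. Cat (catalase, the hydrogen peroxide enzyme of peroxisomes) and Sod1 (the copper and zinc superoxide dismutase) followed at 1226 and 1135 FPKM, and their ranges overlapped. Prdx1, a peroxiredoxin that reduces peroxides with electrons from thioredoxin, had a mean of 374 FPKM and did not overlap with its neighbours. The subunits of glutamate-cysteine ligase, the first and rate-limiting enzyme of glutathione synthesis, lay together at 73.1 FPKM for Gclm (the modifier subunit) and 69.6 FPKM for Gclc (the catalytic subunit). Txnrd1 (cytosolic thioredoxin reductase) and Nfe2l2 also overlapped, at 36.9 and 31.1 FPKM. Srxn1, sulfiredoxin, which repairs over-oxidised peroxiredoxins, had a mean of 11.6 FPKM and Nqo1, a quinone reductase and a classical NRF2 target, one of 3.63 FPKM. Nqo1 varied most between mice of a group, with a within-group SD of 0.368 on the log2(FPKM + 1) scale, against 0.088 for Txnrd1 and a median of 0.141 for all genes tested.

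**Figure D1:**
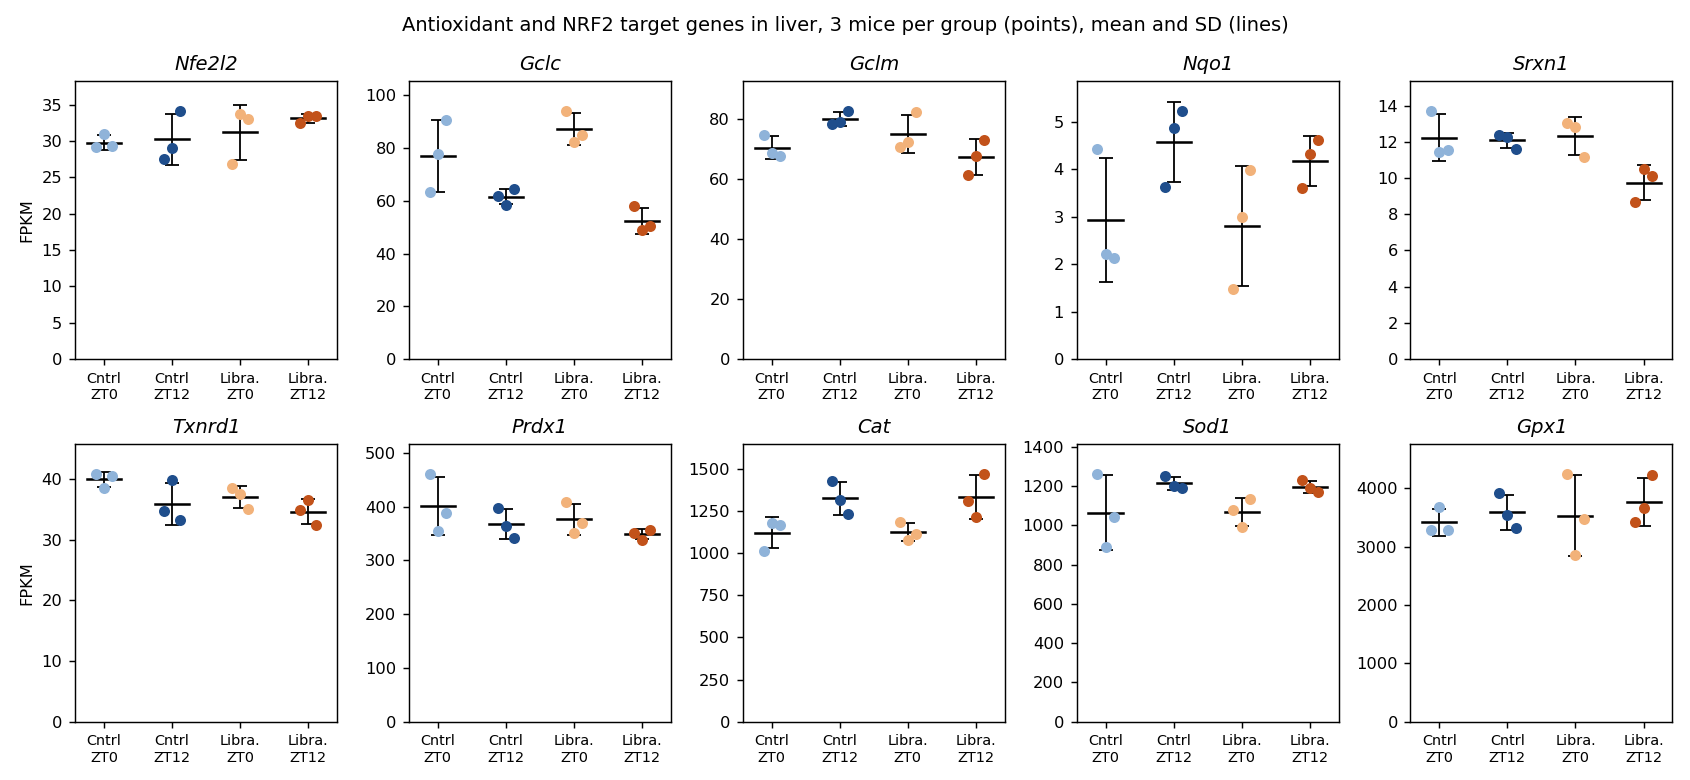
FPKM of the 10 genes (vertical axes, each from 0) in the 4 groups (horizontal axes, Libra. for Libramed), with 1 point per mouse and lines for the mean and SD of 3 mice. Gclc was lowest at ZT12, down to 48.9 FPKM in Libramed, Cat was higher at ZT12 in both treatments, and Srxn1 was lowest in Libramed ZT12.

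The first question was how these genes differed between the beginning of the rest phase and that of the active phase. Over both treatments, fitted on the 12 libraries with limma on log2(FPKM + 1), 3 of the 10 genes passed an adjusted p under 0.05: Gclc fell from ZT0 to ZT12, and Cat and Nqo1 rose. Among all genes tested, 15.9% were called higher and 13.8% lower in this comparison, so a share of this size is near that of genes in general. At an unadjusted p under 0.05, the threshold of the study, 5 of the 10 genes passed, against 41% of all genes. The median change of the 10 genes was 0.03 and that of all genes tested 0.01 on the log2 scale. In Cntrl alone, none of the 10 passed the adjusted or the unadjusted threshold with limma, where 10.4% and 27.4% of all genes did. Cyber-T, the kind of test the study used, called 1 of them in Cntrl at both thresholds, Nqo1, against 14.1% of all genes at the adjusted and 25.8% at the unadjusted threshold. In Libramed alone, limma called 1 gene, Gclc, which was lower, against 12.4% of all genes called and 5.36% called lower. With the unadjusted threshold, Gclc and Srxn1 passed there, against 29.2% of all genes. Cyber-T called Gclc in Libramed, against 16.1% of all genes, and at its unadjusted threshold Gclc, Nqo1 and Srxn1, against 27.7%.

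Gclc was the gene with the clearest day-night difference. Its values were 63.2, 77.8 and 90.4 FPKM in Cntrl ZT0 and 61.9, 58.5 and 64.5 FPKM in Cntrl ZT12. In Libramed they were 94.1, 82.5 and 85.0 FPKM at ZT0 and 58.0, 48.9 and 50.3 FPKM at ZT12. The Cntrl groups overlapped, because 1 of the ZT0 mice was as low as the ZT12 mice, while the Libramed groups were far apart. The means were 77.2 ± 13.6 and 61.6 ± 3.0 FPKM in Cntrl and 87.2 ± 6.11 and 52.4 ± 4.91 FPKM in Libramed (SD, 3 mice each). Gclc fell by 0.73 on the log2 scale in Libramed (SE 0.097, adjusted p = 0.00615, 0.605-fold) and the estimate in Cntrl was -0.31 (SE 0.135, adjusted p = 0.20). Over both treatments it fell by 0.52 (SE 0.102, adjusted p = 0.00267). Without Libramed ZT12 replicate 3, the library with muscle markers, the change in Libramed was -0.70 with an adjusted p of 0.0270. Without replicate 2 of that group, highest in neutrophil markers, it was -0.68 with an adjusted p of 0.0308, and that p ranged from 0.00855 to 0.0308 over the 6 libraries left out in turn. Without Cntrl ZT0 replicate 1, the low mouse, the change in Cntrl was -0.44 and the adjusted p 0.0495.

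Gclm did not share this pattern. It measured 74.7, 68.6 and 67.7 FPKM in Cntrl ZT0 and 78.1, 78.9 and 82.6 FPKM in Cntrl ZT12, so that every ZT12 mouse was above every ZT0 mouse. In Libramed it measured 70.5, 72.1 and 82.2 FPKM at ZT0 and 61.1, 67.6 and 72.9 FPKM at ZT12, and the groups overlapped. The changes were 0.18 in Cntrl (SE 0.078, adjusted p = 0.19) and -0.16 in Libramed (SE 0.0998, adjusted p = 0.35), neither past the threshold. The ratio of Gclc to Gclm, computed after the values were seen and therefore given as a description, was 0.846, 1.13 and 1.34 in Cntrl ZT0 and 0.792, 0.741 and 0.780 in Cntrl ZT12. It was 1.33, 1.14 and 1.03 in Libramed ZT0 and 0.950, 0.723 and 0.690 in Libramed ZT12. The ZT12 ratios were below those of ZT0 within each treatment, with means of 0.771 and 0.788 at ZT12 and of 1.11 and 1.17 at ZT0.

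**Figure D2:**
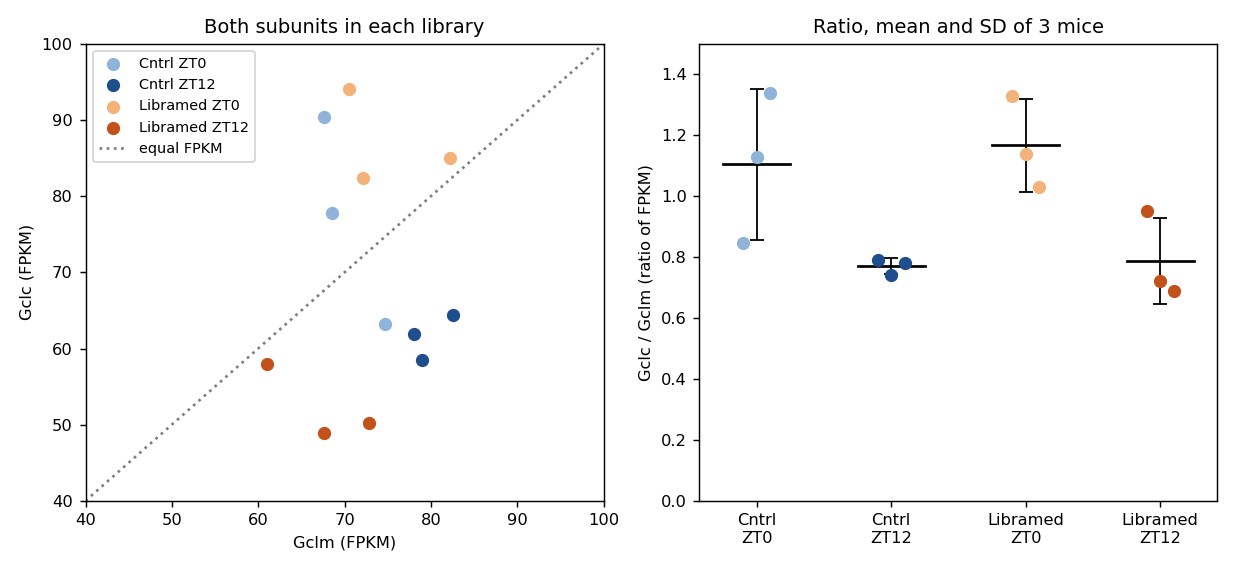
Left, Gclc (vertical axis, FPKM) against Gclm (horizontal axis, FPKM) in the 12 libraries, coloured by group, with a dotted line where both are equal; both axes start at 40 FPKM. Right, the ratio of Gclc to Gclm by group (points, mice; lines, mean and SD of 3 mice), with means of 1.11, 0.771, 1.17 and 0.788 from left to right.

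Nqo1 was higher at ZT12 on average, with a wide spread. It measured 4.43, 2.22 and 2.14 FPKM in Cntrl ZT0 and 3.62, 4.86 and 5.24 FPKM in Cntrl ZT12. In Libramed, its values were 1.47, 2.99 and 3.99 FPKM at ZT0 and 3.61, 4.32 and 4.62 FPKM at ZT12. In each treatment, 1 ZT0 mouse overlapped with the ZT12 mice. Over both treatments Nqo1 rose by 0.52 (SE 0.177, adjusted p = 0.0437), while the estimates of 0.54 in Cntrl and 0.50 in Libramed did not pass (adjusted p = 0.19 and 0.23). The call over both treatments was lost when any of 8 of the 12 libraries was left out, with an adjusted p of 0.0148 to 0.0943 over the 12. The change stayed between 0.39 and 0.63 and passed the unadjusted threshold in all 12 cases.

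Cat rose by 0.24 over both treatments (SE 0.0676, adjusted p = 0.0182). It measured 1015, 1180 and 1165 FPKM in Cntrl ZT0 and 1428, 1314 and 1232 FPKM in Cntrl ZT12. The Libramed values were 1185, 1078 and 1114 FPKM at ZT0 and 1310, 1212 and 1472 FPKM at ZT12. All ZT12 mice lay above the ZT0 mice of their treatment, and the changes within each treatment, 0.24 in both, did not pass alone (adjusted p = 0.20 in Cntrl and 0.17 in Libramed). The call over both treatments held without any 1 of the 12 libraries, with an adjusted p of 0.0154 to 0.0446, and was lost after quantile normalization, where the change was 0.15 and the adjusted p 0.22.

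Sod1 was higher at ZT12 by 0.19 over both treatments, which passed only the unadjusted threshold (adjusted p = 0.092). It measured 991, 1078 and 1132 FPKM in the Libramed ZT0 mice and 1170, 1189 and 1230 FPKM in those of ZT12, without overlap. In Cntrl, 1 of the ZT0 mice had the highest Sod1 of all, 1263 FPKM, and the others had 887 and 1043 FPKM, against 1189 to 1252 FPKM at ZT12. The estimate within Libramed, 0.17, turned to -0.01 with quantile normalization, and neither passed. Gpx1 ranged from 2865 to 4254 FPKM, both extremes being in Libramed ZT0, and its change over both treatments was 0.09 (SE 0.0953, adjusted p = 0.52). Groups did not overlap for 2 of the 10 genes in Cntrl, Gclm and Cat, and for 4 in Libramed, Gclc, Srxn1, Cat and Sod1, against 33.2% and 34.9% of all genes tested.

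In the thioredoxin arm, differences by time were small. Txnrd1 measured 40.9, 38.5 and 40.5 FPKM in Cntrl ZT0 and 34.7, 39.8 and 33.3 FPKM in Cntrl ZT12, with overlap. In Libramed it ranged from 35.1 to 38.6 FPKM at ZT0 and from 32.5 to 36.6 FPKM at ZT12. Its change over both treatments was -0.12 (SE 0.0569, adjusted p = 0.12), past the unadjusted threshold only. Prdx1 changed by -0.11 (SE 0.0711, adjusted p = 0.26), with 462 FPKM in 1 Cntrl ZT0 mouse and 339 to 408 FPKM in the other 11. Srxn1 was level in Cntrl, with 13.7, 11.4 and 11.6 FPKM at ZT0 and 12.4, 12.3 and 11.6 FPKM at ZT12. In Libramed, Srxn1 measured 13.1, 12.8 and 11.2 FPKM at ZT0 and 8.66, 10.5 and 10.1 FPKM at ZT12. All the Libramed ZT12 mice were below the other 9 mice, but the change within Libramed of -0.31 (SE 0.103) had an adjusted p of 0.092. With each of the 6 libraries left out, this change ran from -0.38 to -0.24 and passed the unadjusted threshold in 3 cases.

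In the reported fits, Nfe2l2 itself passed no test in any comparison. With each library left out in turn, Nfe2l2 passed the unadjusted threshold in 1 case for Libramed at ZT12 and in 1 case for Libramed over both times. It measured 29.1, 30.9 and 29.3 FPKM in Cntrl ZT0, 27.5, 29.1 and 34.2 FPKM in Cntrl ZT12, 26.9, 33.7 and 33.0 FPKM in Libramed ZT0 and 32.4, 33.5 and 33.5 FPKM in Libramed ZT12. The groups overlapped at each time and in each treatment. The 95% interval of its change over both treatments ran from -0.10 to 0.20 on the log2 scale, and that of its Libramed effect over both times from -0.05 to 0.25.

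Summed markers of some other cells differed by time as well, but only the endothelial sums did so without overlap in both treatments. Those of macrophages and Kupffer cells overlapped, at 43.65–51.63 and 22.48–59.42 FPKM in Cntrl ZT0 and ZT12. In Libramed ZT0 and ZT12 they were 24.97–40.43 and 29.07–45.24 FPKM. Sums for bile duct cells, neutrophils and red blood cells overlapped in both treatments too. The summed level of 7 endothelial markers, all of them detected, was 28.0–37.9 FPKM in Cntrl ZT0 against 14.1–24.3 in Cntrl ZT12, and 36.3–44.4 in Libramed ZT0 against 22.5–23.9 in Libramed ZT12. That of 7 stellate cell markers, again all detected, was 33.7–61.6 and 30.5–47.5 FPKM in Cntrl and 51.1–68.8 and 25.01–44.1 FPKM in Libramed, in the same order. Most of the endothelial sum was Clec4g, and most of the stellate sum was Dcn. In Libramed, Stab2 and Lyve1 overlapped between the times, while the other endothelial markers were lower at ZT12 without overlap in both treatments. Of 6 fat cell markers, with Lep and Retn at 0 and nearly all of the level from Cfd and Fabp4, the sums were 11.1–20.4 and 21.2–52.7 FPKM in Cntrl and 15.5–15.8 and 10.4–21.95 FPKM in Libramed. Of 7 pancreas markers, Cpa1, Prss2 and Amy2a5 were at 0 and nearly all of the sum was Cela1, at 47.2–70.0 and 30.2–45.8 FPKM in Cntrl and 51.6–75.5 and 42.4–53.1 FPKM in Libramed. Their part in the day-night differences of the 10 genes was not tested.

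**Figure D3:**
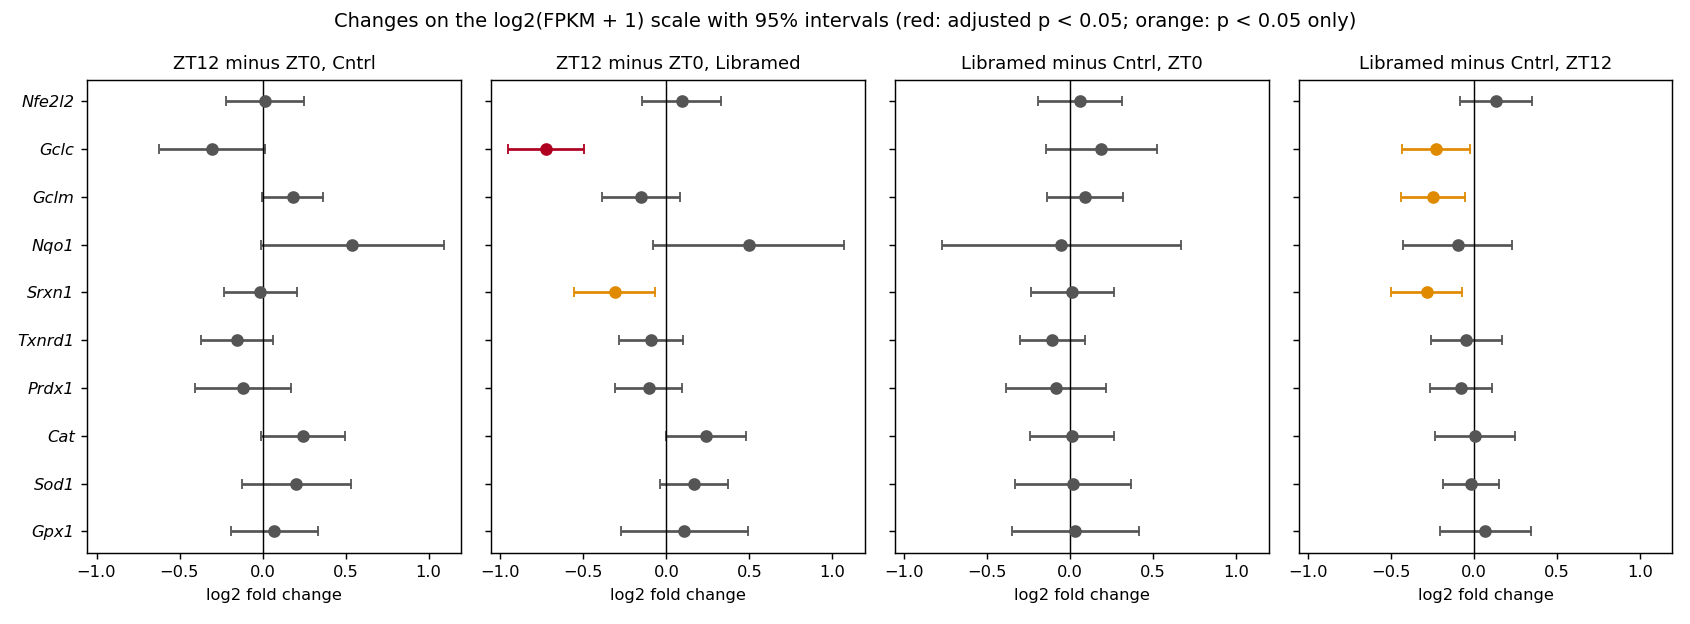
Log2 fold changes on the log2(FPKM + 1) scale (horizontal axes) of the 10 genes in the 4 comparisons of groups, with 95% intervals from limma; red marks an adjusted p under 0.05, orange an unadjusted p under 0.05 only. Only Gclc over time in Libramed, at -0.73, is red, and Gclc, Gclm and Srxn1 lie below 0 with their intervals for Libramed at ZT12.

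The second question was whether Libramed changed these genes. At ZT0 none of the 10 passed the adjusted or the unadjusted threshold with limma, and none did with Cyber-T. Of all genes tested, 0% passed the adjusted and 9.23% the unadjusted threshold with limma, and 0.704% and 8.62% with Cyber-T, and 15.1% had groups that did not overlap, which none of the 10 had. Estimates ran from -0.11 for Txnrd1 to 0.19 for Gclc, and the 95% interval for Gclc ran from -0.15 to 0.52. The median over the 10 genes was 0.01, beside -0.02 for all genes. At ZT0, summed macrophage and Kupffer cell markers were 24.97–40.43 FPKM in Libramed against 43.65–51.63 FPKM in Cntrl. Hepatocyte markers summed to 39460–48490 against 34980–38670 FPKM. Most of that sum was Apoa1, while Fgb was lower in Libramed ZT0, at 2768–3154 against 3491–3798 FPKM. The part of these markers in the estimates was not tested.

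At ZT12, none of the 10 passed the adjusted threshold with limma or Cyber-T, against 0% of all genes with limma and 0.235% with Cyber-T. Gclc, Gclm and Srxn1 were lower in all 3 Libramed mice than in all 3 Cntrl mice and passed the unadjusted threshold with limma. Cyber-T gave Gclm and Srxn1. Among all genes tested, 6.74% passed the unadjusted threshold with either test, 3.67% as lower with limma, and 13.1% did not overlap, 7.26% as lower. The estimates were -0.23 for Gclc (95% interval -0.44 to -0.03), -0.25 for Gclm (-0.44 to -0.06) and -0.29 for Srxn1 (-0.50 to -0.08), each with an adjusted p of 0.73. The means of Gclm were 79.9 ± 2.4 FPKM in Cntrl and 67.2 ± 5.92 FPKM in Libramed, and those of Srxn1 were 12.1 ± 0.436 and 9.75 ± 0.968 FPKM (SD, 3 mice each). The other 7 genes lay between -0.10 for Nqo1 and 0.13 for Nfe2l2, and their groups overlapped.

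These estimates kept their direction whichever of the 6 libraries was left out, from -0.31 to -0.19 for Gclc, from -0.31 to -0.18 for Gclm and from -0.34 to -0.21 for Srxn1. The unadjusted p was under 0.05 in 2, 4 and 6 of the 6 cases. Without Libramed ZT12 replicate 3, the estimates were -0.20 (adjusted p = 0.57) for Gclc, -0.31 (adjusted p = 0.53) for Gclm and -0.31 (adjusted p = 0.53) for Srxn1, and Gclc no longer passed the unadjusted threshold. Without Libramed ZT12 replicate 2, they were -0.19, -0.26 and -0.34 (adjusted p = 0.84 for each), and again Gclc no longer passed the unadjusted threshold. Summed markers of bile duct cells (Krt19, Krt7, Epcam, Sox9 and Spp1, all detected) were 26.4–38.5 FPKM in Libramed ZT12 against 41.5–43.8 FPKM in Cntrl ZT12. Most of that sum was Spp1, at 23.1–33.9 against 36.6–38.1 FPKM, while Sox9 was higher in Libramed ZT12, at 0.905–1.25 against 0.642–0.838 FPKM, and the other 3 overlapped. Their part in the result was not tested.

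Over both times, no gene of the 10 passed either threshold with limma, against 0.0204% of all genes for the adjusted and 10.1% for the unadjusted one. The estimates ranged from -0.14 for Srxn1 to 0.10 for Nfe2l2. That of Gclc was -0.02 (95% interval -0.24 to 0.20), with opposite signs at the 2 times, and that of Cat was 0.01 (-0.14 to 0.15).

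The interaction asked whether the day-night change differed between treatments. None of the 10 passed the adjusted threshold, as for 0% of all genes, and 2, Gclc and Gclm, passed the unadjusted one, against 6.63% of all genes. For Gclc, the change over time was lower in Libramed than in Cntrl by a log2 difference of -0.42 (SE 0.172, adjusted p = 0.72). For Gclm the difference was -0.34 (SE 0.124, adjusted p = 0.66) and for Srxn1 -0.30 (SE 0.136, adjusted p = 0.75). With each of the 12 libraries left out, the unadjusted threshold was passed in 6 cases for Gclc, 10 for Gclm and 3 for Srxn1. The remaining 7 lay between -0.05 and 0.08. The call of Gclc in Libramed and not in Cntrl is therefore not a difference between treatments past the adjusted threshold.

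Around these members, 6 lists of pathway genes were examined over time. Of the regulators of NRF2, 12 tested, only Sqstm1 was called within a treatment, and it fell in both. Of all genes, 4.78% were called lower in Cntrl and 5.36% in Libramed. Sqstm1 encodes p62, an autophagy receptor that binds KEAP1 and is itself a target of NRF2. Its mean was 228 ± 4.74 FPKM in Cntrl ZT0 and 173 ± 12.4 in Cntrl ZT12, and 247 ± 11.4 and 170 ± 2.82 FPKM in Libramed (SD, 3 mice each). It fell by 0.40 in Cntrl (adjusted p = 0.0322) and by 0.54 in Libramed (adjusted p = 0.00715). Over both treatments Maff, a small MAF protein, rose by 0.52 (adjusted p = 0.0337). Its group means were low, 1.31 to 2.92 FPKM, and it passed in neither Cntrl nor Libramed alone (adjusted p = 0.092 and 0.34). In that comparison 1 of the 12 was called higher and 1 lower, against 15.9% and 13.8% of all genes. Keap1 was level, with means of 20.7 to 22.6 FPKM over the 4 groups and no call.

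Of 28 other NRF2 target genes tested, 7 were called higher and 2 lower at ZT12 in Cntrl, against 5.62% and 4.78% of all genes, with a median change of 0.21 beside 0.01 for all genes. The highest were Ces1g, a carboxylesterase, at 1.51, Gsta2 and Gsta4, glutathione transferases, at 1.32 and 1.09, and Abcc3, an exporter of conjugates, at 1.24. Osgin1, an oxidative stress growth inhibitor, fell by 0.91 and Hmox1, heme oxygenase 1, by 0.80. In Libramed, 1 was called higher, Ces1g at 1.07, and 4 lower: Osgin1, Gstm3, Gstm4 and Gsr (glutathione reductase), which fell by 1.31, 0.69, 0.68 and 0.42. Of all genes, 7% were called higher and 5.36% lower there. The median of the list was 0.13, beside 0.01 for all genes. The Gsta and Gstm genes have close copies, so how their reads were split is uncertain. Osgin1 went from 249 ± 38.1 to 134 ± 33.0 FPKM in Cntrl and from 235 ± 43.4 to 93.8 ± 9.51 FPKM in Libramed. Hmox1 was at 9.84 ± 1.23 FPKM in Cntrl ZT0 and at 5.25 ± 0.795, 6.05 ± 1.53 and 6.40 ± 0.592 FPKM in Cntrl ZT12, Libramed ZT0 and Libramed ZT12. Its interaction was 0.89 (SE 0.224, adjusted p = 0.52). The median interaction of this list was -0.26, beside 0.00 for all genes, with 1 gene higher and 4 lower at the unadjusted threshold, which 6.63% of all genes passed in either direction.

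Of 19 genes of glutathione synthesis and recycling tested, 4 rose and 4 fell over both treatments, where 15.9% of all genes were called higher and 13.8% lower. Cbs, which channels homocysteine towards cysteine, fell by 1.31 and Glo1, glyoxalase 1, by 0.46, while Glrx5, a mitochondrial glutaredoxin, and Gpx7, a glutathione peroxidase family member of the endoplasmic reticulum, rose by 0.68 and 0.67. Cbs had means of 326 ± 44.3 and 113 ± 14.8 FPKM in Cntrl, and of 306 ± 31.4 and 142 ± 6.91 FPKM in Libramed, at ZT0 and ZT12. In the same order, the means of Gpx7 were low, at 0.421 and 1.76 FPKM in Cntrl and 0.909 and 1.545 FPKM in Libramed. Gpx7 reached the limit of 1 FPKM for testing only through the ZT12 groups, so its call as higher is not independent of that limit. Of 20 genes of peroxisomes, where catalase resides, 9 rose over both treatments and none fell, against the same 15.9% and 13.8% of all genes, with a median of 0.20 beside 0.01 for all genes. At the unadjusted threshold, 9 rose and 0 fell there, against 41% of all genes in either direction. Pex11a, a factor of peroxisome division, rose by 1.19, Uox, urate oxidase, by 0.61 and Abcd3, a fatty acid transporter, by 0.57.

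Of 23 other superoxide, peroxiredoxin and thioredoxin enzymes, 6 rose and 4 fell over both treatments, beside 15.9% and 13.8% of all genes. Prdx6 and Sod2, the mitochondrial superoxide dismutase, rose by 0.31 and 0.27, and Sod3, the extracellular one, and Msrb3, a methionine sulfoxide reductase, fell by 0.55 and 0.49. Of 14 genes of selenoprotein synthesis and plasma selenium, 3 rose and 3 fell, beside the same shares. Vimp and Selk, selenoproteins of the endoplasmic reticulum, fell by 0.61 and 0.47, and Sepw1 rose by 0.25. All these calls had adjusted p-values between 4.99e-06 and 0.0457 over both treatments. In none of the 6 lists was a gene called with limma for Libramed at ZT0, at ZT12 or over both times, or for the interaction. At the unadjusted threshold, of 114 genes, 8 passed at ZT0, 7 at ZT12, 12 over both times and 10 for the interaction, each gene counted once. Among all genes, 9.23%, 6.74%, 10.1% and 6.63% did so, in the same order.

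**Figure D4:**
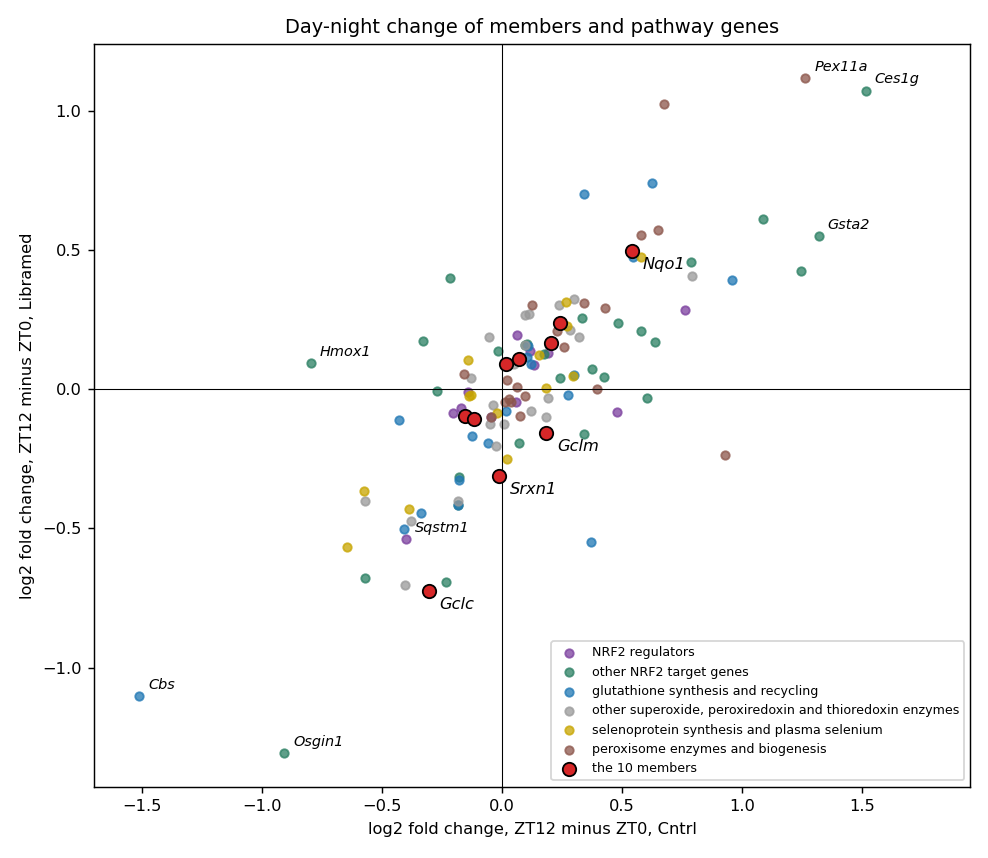
Change from ZT0 to ZT12 on the log2(FPKM + 1) scale in Cntrl (horizontal axis) and Libramed (vertical axis), which share no mice, for the 10 members (red) and the tested genes of the 6 lists (other colours). Gclc lies at -0.31 and -0.73, Nqo1 at 0.54 and 0.50, and Hmox1 and Gclm have different signs in the 2 treatments.

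All 10 genes lie on mm10 and are protein-coding in GENCODE vM21. Nfe2l2 lies at chr2:75675513-75704641, Cat at chr2:103453849-103485160 and Nqo1 at chr8:107388225-107403206, all on the minus strand. On the plus strand, Srxn1 lies at chr2:152105516-152111376, Gclm at chr3:122245557-122270732, Prdx1 at chr4:116685544-116700822 and Gclc at chr9:77754535-77794485. Gpx1 lies at chr9:108338903-108340343, Txnrd1 at chr10:82833951-82897712 and Sod1 at chr16:90220754-90226329, also on the plus strand. Exons of Gclm overlap with those of a noncoding gene on the other strand, Gm17494, and of a processed pseudogene, Gm6061. The sources do not agree on whether the libraries kept strand, so reads of Gclm and of Gm17494 may be mixed.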

How the data were processed

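Liver RNA of 12 mice was sequenced, 3 per group, and samples were grouped from the labels. The authors deposited a single table, in FPKM, with a column for each library. The labels name TopHat and Cuffnorm on mm10 (GRCm38), whereas the methods describe single-end reads aligned with ELAND, kept at unique best matches and scaled as RPKM. The labels name an unstranded kit and the methods a stranded one. Which of these made the table is not given in the sources used here, and unique matching would lower genes with near-identical copies. Of 24138 lines, 289 repeat a symbol, of which the highest on average was retained.

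Values were analysed as log2(FPKM + 1), where fold changes of low genes are understated, for the 9806 symbols with a mean of at least 1 FPKM. The tests, two-sided, came from limma 3.58.1 (R 4.3.3), with lmFit followed by eBayes and its trend option, fitted on all of them, with Benjamini-Hochberg adjustment and calls at an adjusted p under 0.05, or at p under 0.05 as in the study. Pairs of groups were fitted on their 6 libraries. Time, Libramed and their interaction were fitted on 12. Alternatives were a pseudocount of 0.1, no minimum or one of 5 FPKM, no trend, median-ratio scaling, quantile normalization, the replicate number as a block, a single fit of 12 libraries, Cyber-T, and each library left out. The calculations were tested on simulated data. Figures were drawn with matplotlib 3.10.9.

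The 10 genes, the 6 pathway lists and the marker lists were chosen with earlier results of these data known. Of the lists, genes with an adjusted p under 0.05 in any comparison were named, up to 4 per list and comparison by size of change, with Keap1, Hmox1, Gsr, Sod2 and Sepw1 added after their values were seen. A gene that this rule names is not reported here. No counts were used here, so the depth is unknown in absolute terms. The commonest ratio between libraries of genes with a mean under 0.1 FPKM gave depths of 0.72 to 1.29 times that of Cntrl ZT0 replicate 1, but held only 10.1% to 16.3% of these genes. Precision was set by the spread between 3 mice.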

Additional observations from a re-analysis of the deposited data

How the results depend on the processing

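The fall of Gclc passed under all 9 other settings run in Libramed, Cyber-T among them, and all 7 run over both treatments, without Cyber-T, and without any 1 of the 6 and 12 libraries. Of 70 log2 fold changes (10 genes in 7 comparisons), 28 changed sign somewhere, none with a size above 0.17 in the reported fit, and the cause was not tested. With quantile normalization, the signs turned for Nfe2l2 over time in Cntrl (-0.0092), Sod1 and Gpx1 over time in Libramed (-0.014 and -0.12), Cat for Libramed at ZT12 (-0.073), and Gclm and Gpx1 over time in both treatments (-0.038 and -0.0088). With median-ratio scaling, the last value of Gclm was -0.00033. In these other settings, signs also turned for 2 genes in Libramed over both times and for 2 genes in the interaction, none of them called. Cat lost its call over both treatments with quantile normalization, where Txnrd1 and Prdx1 gained one (-0.18 and -0.20, adjusted p = 0.039 and 0.049).

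With each library left out in turn, signs also turned for genes without a call. Over time in Cntrl, Nfe2l2 ran from -0.072 to 0.080 and Srxn1 from -0.056 to 0.065. Over time in Libramed, Nfe2l2 ran from -0.0094 to 0.15 and Gpx1 from -0.033 to 0.25. For Libramed at ZT0, signs turned 12 times in 6 genes, Srxn1 running from -0.030 to 0.091. For Libramed at ZT12, the ranges were -0.10 to 0.026 for Txnrd1, -0.070 to 0.071 for Cat, -0.040 to 0.0029 for Sod1 and -0.018 to 0.14 for Gpx1. Gclm over time in both treatments ran from -0.017 to 0.062, Gclc for Libramed over both times from -0.11 to 0.022, and the interaction of Nfe2l2 from -0.025 to 0.16. Signs turned 17 times in 5 genes for Libramed over both times and 23 times in 6 genes for the interaction. The genes called over time in Cntrl numbered 0 to 2, the 2 being Gclc and Nqo1 without Cntrl ZT0 replicate 1, and 1, Nqo1, with Cyber-T. Without that library, Sod1 was also called over both treatments (0.24, adjusted p = 0.017).

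Nqo1 over both treatments was not called without a minimum FPKM (adjusted p = 0.082). Between libraries with the same replicate number, the r of deviations ran from -0.279 to 0.341. Libraries with different numbers were not compared in this way, so these values cannot show whether the numbers pair the mice. With the replicate block, 2 genes were called over both treatments in place of 3, Nqo1 being lost (adjusted p = 0.060), and no other call on the 10 genes changed. The 3 mice per group and the lack of counts limit all estimates, and no diet control was measured.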

Other observations

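For each of the 10 genes, the tested genes with the most similar profile over the 12 libraries are given as a description. The libraries share their 4 groups, so a gene that differs between ZT0 and ZT12 resembles many others. Closest to Gclc were Khnyn (Pearson r = 0.962) and Abca8b (0.950), and closest to Cat were Sult2a8, a sulfotransferase (0.969), and Ghr, the growth hormone receptor (0.961). Nqo1 was nearest to Smoc1 (0.934) and Secisbp2l (0.913), Sod1 to Gstt1, a glutathione transferase (0.951), and Selo (0.932), and Prdx1 to Farsb (0.924) and Caml (0.918). Gpx1 was nearest to Polb (0.919) and Tdrd3 (0.904), Srxn1 to Pus3 (0.904) and Cmpk2 (0.895), Gclm to Vps29 (0.876) and Ccnh (0.816), and Txnrd1 to Vmo1 (0.866) and Tirap (0.864). Nfe2l2 had the lowest values of the 10, 0.815 with Arid2 and 0.807 with Camk2n1. None of the 10 genes was among the nearest of another.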
